A study of Homo sapiens with 13 samples.

Results

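The constructs described here are artificial enhancers whose neighbouring transcription factor motifs stand 10 bp apart, tested on transfected plasmids in MEC1 cells. MEC1 is an established B lymphocyte line from a chronic lymphocytic leukaemia and is given as wild type. A construct entered when at least 5 of its barcodes carried at least 5 plasmid reads each, which 442 constructs did. The deposited tables of both episomal libraries, with motifs 10 bp or 5 bp apart, together hold 542 construct names. All 210844 named barcodes of the 10 bp library with at least 5 plasmid reads were used, so the minimum of barcodes removed none of them. For the tests a construct also had to pass in the 5 bp library. Of the series' 13 samples, 3 belong to this experiment: 1 library of the plasmid pool (plDNA) and 2 libraries of reporter mRNA. The mRNA libraries came from duplicate transfections with 30 µg of plasmid each, and RNA was taken 24 h later. Both groups share 1 cell line, for which no treatment is listed, and a pool that was read once as DNA. The plasmids were not integrated, so no construct was read at a place in the genome.

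An enhancer is a stretch of DNA that raises transcription of a promoter and works through the transcription factors bound to it. In STARR-seq the candidate enhancer lies within the transcribed reporter, so an active sequence is copied into more mRNA and a random barcode identifies it. Factors can help each other onto DNA, can recruit activators or repressors, and can compete for overlapping or neighbouring sites, so the number, kind and order of motifs may all matter. The 8 motifs carry the names of factors with known roles in B cells or in many cell types. NFKB is the dimeric factor of inflammatory and B cell receptor signalling, and IRF stands for the interferon regulatory factors, several of which direct lymphocyte genes. PU1 is an ETS family factor of myeloid and B cells that can bind composite sites with IRF proteins, and RUNX3 is a Runt family factor of blood cells. FOXO factors are forkhead proteins restrained by growth factor signalling, and MEF2 factors are MADS box proteins that can join with activators or with histone deacetylases. MYC binds E-boxes with MAX, and CTCF is a zinc finger protein best known for chromatin loops and insulators.

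A construct name lists its motifs in order and ends with the number of its flanking context, so NFKB_IRF_3 holds NFKB and then IRF in context 3. The pool held 115 homotypic constructs (1 to 5 copies of 1 motif), 324 mixed constructs with both motifs of a pair, and 3 constructs named rd that carry no motif name. The mixed constructs covered all 28 pairs of the 8 motifs. They were 168 arrays of 2 motifs (AB), 54 of the form ABA, 36 of ABAA, 36 of ABAB and 30 of ABABA. The members rested on 210844 barcodes, with a median of 415 and a range of 12 to 2042 per construct. These barcodes held 3454547 plasmid reads, 3147463 reads of mRNA replicate 1 and 3117619 of replicate 2.

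Activity is the log2 ratio of a construct's share of mRNA reads to its share of plasmid reads, minus the mean of the same ratio over the 3 rd constructs. An activity of 1 thus means 2-fold more mRNA per plasmid than the rd mean. The SD given with an activity covers the 2 mRNA libraries, which share 1 plasmid library, so it leaves out the error of the plasmid library. For a mean over constructs it is the spread of that mean between the libraries, not the spread among the constructs. The replicates differed by a median of 0.10 log2 units per construct and by at most 0.63, and 8 constructs differed by more than 0.3. Adjusted p-values come from edgeR's quasi-likelihood test with Benjamini-Hochberg adjustment over all constructs or couples tested. With 2 libraries against 1, no permutation of the samples could pass a threshold of 0.05.

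Each listed barcode had at least 1 read in all 3 libraries, so barcodes without mRNA reads are not among them, and the effect on the levels of weak constructs was not tested. Of all barcodes with at least 20 plasmid reads, 7.38% stood at 1 read in at least 1 mRNA library. Reads came from PCR without molecular identifiers, so their number overstates the number of molecules. In the median construct the strongest barcode gave 2.42% of the mRNA reads. In 9 constructs 1 barcode gave over 25% of the reads of a replicate, and 5 of these hold CTCF. All 406 constructs that passed the test kept their sign when activity was taken as the median over barcodes.

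The constructs without a motif served as the zero point and differed among themselves by context. rd_1 had 10404 plasmid reads and 6177 and 5612 mRNA reads, and an activity of -0.06 ± 0.012 (SD, n = 2). rd_2 had 12769 plasmid reads and 9652 and 9033 mRNA reads, and an activity of 0.31 ± 0.018. rd_3 had 12397 plasmid reads and 6419 and 5871 mRNA reads, and an activity of -0.25 ± 0.0055. Context 2 thus gave the most active of the 3, and the replicates of the 3 constructs did not overlap.

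Against this zero point, 206 of 442 constructs (46.6%) were enriched in mRNA over plasmid (higher) and 200 (45.2%) were depleted (lower), at adjusted p under 0.05. Of the 3 rd constructs themselves, 1 was higher and 1 was lower, and both are in these counts. Passing the test therefore does not by itself mark an effect of a motif. At least 2-fold higher were 115 (26.0%), and at least 2-fold lower were 116 (26.2%). Scaled on library totals in place of the rd constructs, the split was 138 higher and 276 lower, and the median log2 ratio moved from -0.05 to -0.67. By that scaling the rd constructs themselves averaged -0.62 and every activity was lower by this amount. Activities between 0 and the size of this shift, means of groups included, therefore turn negative with it, while differences between constructs do not depend on it. Mixed constructs had a mean activity of 0.04 ± 0.063, with 169 of 324 higher, and homotypic constructs one of -0.39 ± 0.066, with 36 of 115 higher.

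The 10 most active constructs were built from NFKB, IRF, FOXO and RUNX3. NFKB_IRF_NFKB_3, an IRF motif between NFKB motifs, led with 15084 plasmid reads and 58796 and 57999 mRNA reads. Its activity was 2.72 ± 0.072, a 6.57-fold excess over rd (adjusted p = 6.82e-37). NFKB_IRF_2 followed with 9781 plasmid reads, 33654 and 34421 mRNA reads and an activity of 2.56 ± 0.11. NFKB_IRF also entered the 10 in context 3 at 2.29 ± 0.068 and in context 1 at 2.14 ± 0.049, so this order of the pair was among the 10 in all 3 contexts. NFKB_RUNX3_NFKB_3 reached 2.46 ± 0.075, from 15957 plasmid reads and 51954 and 51445 mRNA reads. The homotypic members of the 10 were all IRF arrays, namely IRF_IRF_1 at 2.39 ± 0.085, IRF_IRF_IRF_3 at 2.38 ± 0.12 and IRF_IRF_2 at 2.20 ± 0.11. The remaining members alternated FOXO with IRF or NFKB over 5 positions: FOXO_IRF_FOXO_IRF_FOXO_1 at 2.32 ± 0.12 and FOXO_NFKB_FOXO_NFKB_FOXO_3 at 2.14 ± 0.11. In this order IRF_IRF_1 and IRF_IRF_IRF_3 differed by less than the spread between their replicates.

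The 10 least active constructs all held CTCF. FOXO_CTCF_FOXO_CTCF_1 had 1913 plasmid reads on 49 barcodes and 122 and 102 mRNA reads. Its activity of -3.34 ± 0.097 was 10.1-fold below rd (adjusted p = 8.53e-42). NFKB_CTCF_NFKB_1 had 11395 plasmid reads on 328 barcodes and 765 and 810 mRNA reads, an activity of -3.09 ± 0.14. MEF2_CTCF_MEF2_CTCF_1 lay at -3.14 ± 0.45 on only 22 barcodes, with 69 and 41 mRNA reads, and had the widest replicate spread of the 10. The others were CTCF_CTCF_CTCF_CTCF_2 at -3.02, FOXO_CTCF_FOXO_2 at -2.91, FOXO_CTCF_FOXO_CTCF_2 at -2.77, FOXO_CTCF_FOXO_1 at -2.74, CTCF_FOXO_1 at -2.70, CTCF_NFKB_CTCF_2 at -2.68 and MEF2_CTCF_2 at -2.63.

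Among homotypic arrays the IRF motif gave the highest mean activity and CTCF the lowest. The 15 IRF arrays averaged 1.59 ± 0.11 (3.02-fold above rd), ranged from 0.28 to 2.39, and were all higher, 13 of them at least 2-fold, with IRF_2 the one below 0 by library totals, and at -0.028 against the rd construct of its own context. The 15 NFKB arrays averaged 0.54 ± 0.12, from -0.45 to 1.78, with 10 higher and 2 lower, and their mean was -0.08 by library totals. RUNX3 arrays lay near rd at -0.11 ± 0.077, with 6 higher and 7 lower of 15. Below rd lay MEF2 at -0.50 ± 0.069 (2 higher, 9 lower of 15) and FOXO at -0.58 ± 0.042 (1 higher, 13 lower of 15), which differed by about the spread between replicates. PU1 averaged -1.13 ± 0.099 (2 higher, 12 lower of 14) and MYC -1.21 ± 0.0088 (none higher, 14 lower of 15), a difference below the SD of PU1. Their arrays ranged more widely, from -2.12 to 0.73 for PU1 and from -2.57 to 0.02 for MYC. The 11 CTCF arrays averaged -2.23 ± 0.0053, 4.69-fold below rd, and all were lower.

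Nearly all constructs with CTCF, alone or mixed, were poorly active. Of the 77 constructs holding CTCF, 75 were lower and 1 was higher, with a mean of -1.95 ± 0.015. The 362 constructs with motifs other than CTCF averaged 0.33 ± 0.074, with 204 higher and 124 lower. Plasmid reads per barcode were 22.3 in the CTCF constructs and 15.9 in the others. Of barcodes with at least 20 plasmid reads, 30.9% against 3.68% stood at 1 read in at least 1 mRNA library. No barcode is listed below 1 read, and the part of this in the level of CTCF constructs was not tested. With at least 20 plasmid reads per barcode the homotypic CTCF mean was -2.47.

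The most active member of each CTCF pair showed how far a partner came. With IRF the best was CTCF_IRF_3 at -1.55, with RUNX3 CTCF_RUNX3_2 at -1.80, with PU1 CTCF_PU1_3 at -1.15, with MYC MYC_CTCF_3 at -1.62, with FOXO FOXO_CTCF_FOXO_3 at -1.76 and with MEF2 MEF2_CTCF_MEF2_3 at -0.66. All of these were lower than rd. The NFKB pair was the exception. NFKB_CTCF_NFKB_3 had 28038 plasmid reads on 1716 barcodes and 27455 and 26880 mRNA reads, and its activity of 0.72 ± 0.064 was the only one above rd among CTCF constructs (adjusted p = 2.23e-11; 0.10 and not past the threshold by library totals). The same array in context 2 lay at -1.96 ± 0.16 and in context 1 at -3.09 ± 0.14. The difference of 3.81 log2 units between contexts 3 and 1 (SE 0.12, adjusted p = 1.15e-16) was the largest between contexts in the pool. CTCF_NFKB_2 lay at -0.10 ± 0.033 and did not differ detectably from the rd mean (adjusted p = 0.284). The rd construct of its own context, rd_2, lay higher, at 0.31. The reverse order, NFKB_CTCF_2, lay at -2.47 ± 0.047. CTCF outside NFKB stayed low in every context, with CTCF_NFKB_CTCF constructs between -2.68 and -2.18.

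Adding copies of the same motif lowered activity more often than it raised it. Each array of 2 to 5 copies was set against the single motif of the same context, which gave 91 couples. Of these, 21 (23.1%) were higher and 56 (61.5%) lower than the single motif, with a median difference of -0.59. The median difference was -0.04 for 2 copies, -0.41 for 3, -0.91 for 4 and -0.84 for 5. Couples share the single motif construct of their context and are not independent.

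A second copy raised activity in all 3 contexts for RUNX3 and in 2 of 3 for IRF. IRF averaged 1.02 ± 0.034 with 1 copy, 2.14 ± 0.11 with 2, 1.79 ± 0.12 with 3, 1.61 ± 0.16 with 4 and 1.41 ± 0.14 with 5. Of its 12 couples 9 were higher and none lower. Single IRF motifs were weaker in contexts 1 and 2, and there a second copy made the most difference. IRF_2 had 9658 plasmid reads, 7079 and 6773 mRNA reads and an activity of 0.28, while IRF_IRF_2 had 8132 plasmid reads and 21706 and 22211 mRNA reads, a difference of 1.91 (SE 0.13, adjusted p = 1.82e-39). In context 3 a single IRF motif already gave 1.79 ± 0.064, and IRF_IRF_3 differed from it by 0.04 (adjusted p = 0.768). RUNX3 averaged -0.13 ± 0.032 with 1 copy, 0.37 ± 0.087 with 2, 0.51 ± 0.093 with 3, -0.35 ± 0.089 with 4 and -0.94 ± 0.083 with 5. All 3 couples of 2 copies were higher, and with 5 copies none was higher and 2 were lower. The largest RUNX3 gain over the single motif was that of RUNX3_RUNX3_RUNX3_3, at 0.94 ± 0.092, over RUNX3_3, at -0.34 ± 0.076, with 1.28 log2 units (SE 0.13). The largest loss was -1.50 (SE 0.12), of 5 copies in context 1.

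NFKB arrays did not gain steadily with copies in this pool. They averaged 0.90 ± 0.0086 with 1 copy, 1.16 ± 0.090 with 2, 0.01 ± 0.14 with 3, 0.02 ± 0.16 with 4 and 0.63 ± 0.18 with 5, and of 12 couples 4 were higher and 7 lower. The single motif differed strongly by context. NFKB_3 had 11294 plasmid reads and 23652 and 22224 mRNA reads (activity 1.78 ± 0.022), NFKB_1 lay at 1.08 ± 0.0028 and NFKB_2 at -0.16 ± 0.00089. NFKB_NFKB_NFKB_3, with 10099 plasmid reads and 4220 and 4484 mRNA reads, differed from NFKB_3 by -2.24 log2 units (SE 0.15, adjusted p = 9.05e-38). In context 2 the arrays of 2, 4 and 5 copies were above rd at 0.82, 0.41 and 0.84 and that of 3 copies lay at -0.10.

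PU1 showed the sharpest loss on going from 1 motif to more. Single PU1 motifs averaged 0.24 ± 0.036, with 0.73 in context 1, -0.58 in context 2 and 0.57 in context 3. Arrays of 2 averaged -1.11 ± 0.16, of 3 -1.74 ± 0.071, of 4 -1.58 ± 0.098 and of 5 -1.60 ± 0.15. All 11 couples were lower. In context 1 PU1_1 had 6633 plasmid reads and 6690 and 6261 mRNA reads, PU1_PU1_1 had 3985 plasmid reads and 841 and 919, and PU1_PU1_PU1_1 had 5436 plasmid reads and 830 and 771. The last differed from the single motif by -2.73 log2 units (SE 0.12, adjusted p = 3.55e-67). Arrays of 4 and 5 PU1 motifs rested on only 17 to 72 barcodes each.

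MYC and FOXO arrays were lower than their single motif in all 12 couples each. MYC fell from -0.39 ± 0.0051 with 1 copy to -0.81 ± 0.042, -1.26 ± 0.067 and -1.81 ± 0.039 with 2, 3 and 4, and stood at -1.77 ± 0.021 with 5. MYC_MYC_MYC_MYC_MYC_2 was the lowest homotypic array without CTCF, at -2.57 ± 0.042 on 338 barcodes. FOXO went from 0.14 ± 0.024 with 1 copy to -0.52 ± 0.051 with 2 and then stayed between -0.90 and -0.80 with 3 to 5. Only FOXO_3 exceeded rd, at 0.89 ± 0.015 from 13101 plasmid reads and 14861 and 13871 mRNA reads. MEF2 was near rd with 1 copy (0.15 ± 0.031) and 2 copies (0.19 ± 0.062) and dropped to -1.22 ± 0.097 with 4 and -1.39 ± 0.12 with 5. All 6 MEF2 couples of 4 and 5 copies were lower, on 17 to 71 barcodes per array.

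CTCF averaged -2.16 ± 0.044 with 1 motif. Arrays of 2 averaged -2.18 ± 0.050 and arrays of 3 -2.48 ± 0.050, and of 8 couples 1 was higher, 3 were lower and 4 did not pass. CTCF_CTCF_CTCF_CTCF_2 was lower than CTCF_2 by -0.89 (SE 0.15, adjusted p = 4.56e-09). The higher couple was CTCF_CTCF_CTCF_CTCF_1, at -1.07 ± 0.099 on 12 barcodes. In it 1 barcode gave 68.9% and 73.0% of the mRNA reads of the replicates, and the median over its barcodes was -1.93. By barcode medians its difference from CTCF_1 shrank from 1.18 to 0.28.

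Mixed arrays were compared with the homotypic arrays of both of their motifs, matched for context and for the total number of motifs. This was possible for 318 mixed constructs. Above the stronger of the homotypic arrays were 98 (30.8%), and below it were 144 (45.3%). Above the weaker were 265 (83.3%), and below it were 13 (4.09%). Thus 98 constructs lay between their homotypic arrays, below the stronger and above the weaker. The largest difference below the weaker array, -2.27 for FOXO_CTCF_FOXO_CTCF_1, was against CTCF_CTCF_CTCF_CTCF_1, which rested on 12 barcodes. FOXO_CTCF_FOXO_FOXO_1, also below the weaker, had the same reference. The stronger and the weaker array were picked by their measured activity, which makes the first too high and the second too low by some amount. The share above the stronger array was 28 of 168 for 2 motifs, 22 of 54 for 3, 31 of 68 for 4 and 17 of 28 for 5, with median differences of -0.48, 0.11, 0.21 and 0.47. The longer arrays hold fewer pairs, so these shares mix length with pair. Pairs of FOXO or MEF2 with IRF, MYC, NFKB, PU1 or RUNX3 were present at 2 to 5 motifs. The shares were not compared within these pairs. The reference was also lower in longer arrays. Homotypic arrays differed from their single motif by medians of -0.04 and -0.41 at 2 and 3 copies. At 4 and 5 copies the medians were -0.91 and -0.84. The shares above the stronger array thus do not give the change with length of the mixed arrays themselves.

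FOXO and MEF2, whose homotypic arrays lay below rd on average, were common among the mixed arrays above the stronger homotypic array. FOXO was in 45 of these 98 constructs and MEF2 in 45, while 108 of the 318 constructs compared held FOXO and 108 held MEF2. All ABAA, ABAB and ABABA arrays held FOXO or MEF2, so these counts mix motif with the length of the arrays. They were not compared within 1 length. NFKB was in 38 of the 98, from 84 compared, with a median of 0.22 against the stronger array, and the medians of FOXO and MEF2 were 0.10 and 0.17. Without CTCF, mixed FOXO constructs averaged 0.53 ± 0.073 and mixed MEF2 constructs 0.46 ± 0.081. IRF stood in 7 of the 98, from 69 compared, with a median of -0.74 against the stronger array.

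All 18 constructs of FOXO with NFKB were above rd, at a mean of 1.52 ± 0.067 and with a lowest value of 0.73. Of its 18, 13 were above the stronger homotypic array, and the median excess was 1.01. Means were 1.46 ± 0.037 for ABA (FOXO_NFKB_FOXO), 1.60 ± 0.073 for ABAA, 1.74 ± 0.10 for ABAB and 1.94 ± 0.12 for ABABA, and these were not tested against each other. FOXO_NFKB_FOXO_1 had 7726 plasmid reads and 10701 and 10103 mRNA reads, while FOXO_FOXO_FOXO_1 had 14927 plasmid reads and 3718 and 3527. Exchanging the central FOXO for NFKB thus raised activity by 2.47 log2 units (SE 0.092, adjusted p = 1.15e-69).

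FOXO with RUNX3 had higher means in ABAB and ABABA than in ABA and ABAA. ABA and ABAA averaged 0.36 ± 0.073 and 0.45 ± 0.12, and ABAB and ABABA 1.62 ± 0.11 and 1.63 ± 0.11, and the arrangements were not tested against each other. FOXO_RUNX3_FOXO_RUNX3_FOXO_1 had 5562 plasmid reads and 12722 and 12957 mRNA reads, an activity of 1.97 ± 0.10. The array of 5 FOXO motifs in that context had 7898 plasmid reads and 2333 and 2319 mRNA reads, and that of 5 RUNX3 motifs lay at -1.14 ± 0.10. The mixed array exceeded the stronger of these by 2.97 log2 units (SE 0.14, adjusted p = 4.35e-85), the largest such excess in the pool. FOXO_RUNX3_FOXO_RUNX3_FOXO_3, FOXO_RUNX3_FOXO_RUNX3_3 and FOXO_RUNX3_FOXO_RUNX3_1 followed among the 5 largest, at 2.37, 2.34 and 2.29, together with NFKB_PU1_NFKB_3 at 2.57.

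FOXO with IRF averaged 1.10 ± 0.049 for ABA, 1.74 ± 0.12 for ABAB, 2.08 ± 0.14 for ABABA and 0.85 ± 0.12 for ABAA. In the ABA form the level differed by context: FOXO_IRF_FOXO_2 reached 1.89 ± 0.056 and FOXO_IRF_FOXO_1, with 17325 plasmid reads and 9109 and 8469 mRNA reads, only -0.22 ± 0.011. FOXO with MYC was lower than rd in all 18 constructs, at -0.88 ± 0.0098, and its best member was FOXO_MYC_FOXO_3 at -0.38. FOXO with PU1 split by arrangement, with ABAA at 0.35 ± 0.11 and ABAB at -1.09 ± 0.16. Its best member was PU1_FOXO_1 at 0.55, and 13 of 17 exceeded the stronger homotypic array. FOXO with MEF2 was present as arrays of 2 only, and all 6 were above rd at 0.69 ± 0.081, led by FOXO_MEF2_2 at 1.16 ± 0.099.

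MEF2 reached its highest levels with IRF and NFKB. The 18 MEF2 and IRF constructs averaged 1.23 ± 0.088 and all were above rd, led by MEF2_IRF_MEF2_IRF_3 at 1.77. None exceeded the stronger homotypic array, and 13 lay between the homotypic arrays. The 18 MEF2 and NFKB constructs averaged 1.18 ± 0.075 and all were above rd, with MEF2_NFKB_MEF2_3 at 1.97 ± 0.071. Of these, 13 exceeded the stronger array. The lowest members of the 2 sets, MEF2_IRF_MEF2_MEF2_2 at 0.22 and MEF2_NFKB_MEF2_MEF2_2 at 0.20, were above the rd mean. Both lay below the rd construct of their own context, rd_2, at 0.31. MEF2 with MYC averaged -0.01 ± 0.085 and was led by MEF2_MYC_MEF2_3 at 1.33, though 13 of 18 exceeded the stronger homotypic array. MEF2 with RUNX3 varied most with the arrangement, from MEF2_RUNX3_3 at 1.35 to the ABABA arrays at -1.36 ± 0.00043, where FOXO with RUNX3 stood at 1.63. MEF2_RUNX3_MEF2_RUNX3_MEF2_1, at -1.83 on 66 barcodes, lay below even the weaker homotypic array, with a difference of -0.51 (adjusted p = 0.0237). This call was lost without mRNA replicate 2, and the weaker array, of 5 MEF2 motifs, rested on 17 barcodes. MEF2 with PU1 averaged -0.22 ± 0.092, and its best member was PU1_MEF2_3 at 0.77.

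The other pairs without CTCF were led by those with IRF or NFKB. IRF with NFKB averaged 2.11 ± 0.071 over 9 constructs, and NFKB with RUNX3 1.39 ± 0.078 over 9. IRF with RUNX3 averaged 1.37 ± 0.11 over 6, led by IRF_RUNX3_1 at 1.83. NFKB with PU1 averaged 0.98 ± 0.095 over 9, and NFKB_PU1_NFKB_3, with 13904 plasmid reads and 35417 and 35590 mRNA reads, reached 2.11 ± 0.090. Lower means were found for IRF with PU1 (0.48 ± 0.11, best IRF_PU1_1 at 0.79), IRF with MYC (0.39 ± 0.043, best MYC_IRF_3 at 0.81), PU1 with RUNX3 (0.28 ± 0.088, best PU1_RUNX3_1 at 0.58) and MYC with NFKB (0.24 ± 0.048, best NFKB_MYC_NFKB_1 at 1.14). MYC with RUNX3 (-0.51 ± 0.017, best RUNX3_MYC_3 at -0.20) and MYC with PU1 (-0.91 ± 0.048, best PU1_MYC_3 at -0.23) were lower than rd in all 6 constructs each. Against the rd construct of the same context, RUNX3_MYC_3 and PU1_MYC_3 turned to 0.050 and 0.026.

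The effect of a single central motif was read from arrays of 3. Of 54 arrays AXA set against AAA of the same context, 36 (66.7%) were higher and 9 (16.7%) lower, with a median difference of 0.82. Between FOXO motifs, an NFKB, IRF, RUNX3 or PU1 centre was higher than FOXO in all 3 contexts each, by means of 2.26, 1.90, 1.16 and 0.95, and a CTCF centre was lower in all 3, by a mean of -1.67. Between MEF2 motifs, IRF, NFKB and MYC were higher in all 3 contexts, by 1.51, 1.48 and 0.86, and CTCF was lower in all 3, at -0.65. Between NFKB motifs, IRF and RUNX3 were higher in all 3 contexts, by means of 2.08 and 1.64. An NFKB centre between CTCF motifs passed in none of the 3 contexts, with a mean difference of 0.12.

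Centres between NFKB motifs in context 3 are given singly. NFKB_NFKB_NFKB_3 itself lay at -0.45 ± 0.15. With IRF in the centre the array was 3.17 log2 units higher (SE 0.19), with RUNX3 2.91 (SE 0.20) and with PU1 2.57 (SE 0.18), all with adjusted p of 1.08e-32 or less. A CTCF centre was higher by 1.17 (SE 0.13, adjusted p = 1.16e-15). With MYC the difference of 0.33 did not pass (adjusted p = 0.144). In context 1, where NFKB_NFKB_NFKB_1 lay at 0.59 ± 0.15, a CTCF centre gave a difference of -3.68 log2 units (SE 0.12, adjusted p = 4.02e-79).

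Motif order made a detectable difference in 34 of 84 couples of arrays of 2 motifs. Of these couples, which differed only in order, 18 (21.4%) were higher and 16 (19.0%) lower with the alphabetically first motif in front, and 50 did not pass. The fit behind these counts did not pair both constructs of a couple by library, and more couples passed with a fit that did. Only 1 couple in each direction differed at least 2-fold. CTCF_NFKB_2 had 10177 plasmid reads and 5748 and 5457 mRNA reads, and NFKB_CTCF_2 had 6907 plasmid reads and 747 and 719 mRNA reads, a difference of 2.37 log2 units (SE 0.10, adjusted p = 4.65e-09). In contexts 1 and 3 the difference of this pair was 0.30 and 0.04, and only that of context 1 passed. IRF_PU1_2 had 6146 plasmid reads and 3029 and 2964 mRNA reads, and PU1_IRF_2 had 6215 plasmid reads and 5969 and 6349, a difference of -1.02 for IRF in front (SE 0.12, adjusted p = 4.56e-05). For IRF and PU1 in contexts 1 and 3 it was 0.15 and -0.24, and neither passed. IRF in front of NFKB was lower than NFKB in front of IRF in all 3 contexts, with a mean difference of -0.42.

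Read by motif, PU1 was higher in front than behind in 7 of its 21 couples and lower in 2. FOXO was higher in front in 7 and lower in 1, and CTCF higher in 8 and lower in 2. IRF was higher in front in 1 and lower in 8, MEF2 in 1 and 6, RUNX3 in 1 and 6, NFKB in 5 and 8 and MYC in 4 and 1. Each couple counts for both of its motifs, so these counts are not independent of each other. The sources used here do not say which end of an array lies nearer the promoter.

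The flanking context shifted most designs, and designs were more often higher than lower in context 3 against either other context. Between contexts 2 and 1, 26 of 147 designs (17.7%) were higher and 64 (43.5%) lower in context 2, with a median difference of -0.22. Between contexts 3 and 1, 66 of 145 (45.5%) were higher and 18 (12.4%) lower in context 3, with a median of 0.20. For designs with CTCF this median was 0.56, with 19 of 25 higher and none lower. For designs without CTCF it was 0.09, with 47 of 120 higher, 18 lower and 55 not past the threshold. Between contexts 3 and 2, 94 of 145 (64.8%) were higher and 14 (9.66%) lower in context 3, with a median of 0.44. The rd constructs ran the other way, with context 2 the highest and context 3 the lowest. Each context is 1 flanking sequence, so its effect cannot be told apart from that of the single sequence used.

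Constructs with a single motif had the largest mean differences between contexts 3 and 2 and between contexts 2 and 1. Over the 8 motifs the mean difference between contexts 3 and 2 was 0.92, with 6 higher and none lower, and it was between 0.30 and 0.62 for 2 to 5 motifs. Between contexts 2 and 1 the mean difference of single motifs was -0.62. NFKB_3 exceeded NFKB_2 by 1.95 log2 units (SE 0.13) and IRF_3 was 2.83-fold above IRF_2. FOXO_3 and MEF2_3 were likewise the only single motifs of their kind above rd. Of the MYC designs, 24 of 28 were higher in context 3 than in context 2 and 1 was lower. Arrays of 3 motifs had the largest mean difference between contexts 3 and 1, at 0.72, with 20 of 26 higher.

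Part of the differences between contexts in CTCF and long arrays rested on few barcodes. MEF2_CTCF_MEF2_CTCF_2 lay at -0.87 ± 0.016 on 27 barcodes, of which 1 gave 73.2% and 75.2% of the mRNA reads. The median over its barcodes was -2.67. Its difference from context 1 was 2.28 by summed reads and 0.10 by barcode medians, and its difference from context 3 turned from -1.47 to 0.36. PU1_PU1_PU1_PU1_2, on 40 barcodes, exceeded its context 1 counterpart by 0.82 by summed reads and lay at -0.02 to it by barcode medians. The differences named above for NFKB_CTCF_NFKB, NFKB, IRF and FOXO_IRF_FOXO rest on 328 barcodes or more per construct.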

How the data were processed

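Reads of the 10 bp episomal pool were analysed: 1 plasmid DNA library (4563359 reads) and 2 mRNA libraries (4410738 and 4356282 reads). Per the file headers, the authors deposited raw read counts per 12 bp barcode, and named the construct of each barcode that could be assigned. Of the reads, 18.5% of plasmid and 17.2% of mRNA had no construct name and stayed out of library sizes and tests. Per the labels' protocols, mRNA was amplified for 19 to 22 cycles and then 8 index cycles, and plasmid DNA for 8. The sources used here give neither the barcode counter and its version nor the motif and context sequences. The tables also hold 9 columns with sample values whose names fit no sample's labels, and these were left unused.

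Counts were summed per construct and tested with edgeR 4.0.16 in R 4.3.3 (quasi-likelihood test, 6 libraries in 4 groups). The 5 bp episomal libraries lent only their spread, and plasmid DNA, with 1 library, was taken to vary like mRNA. Libraries were scaled on the geometric mean of the 3 rd constructs. Differences between matched constructs were tested as a contrast of their mRNA to plasmid ratios in the same libraries. That fit held no term per library, so it did not pair both constructs of a couple by library. The threshold was an adjusted p of 0.05. The mRNA replicates differed beyond the sampling noise of reads (chi-square of 6.76 per degree of freedom). Reads outnumber molecules, so this value alone does not show separate samples. The replicates counted as separate, being given as duplicate transfections. Same-numbered replicates of both pools were not taken as paired (correlation of their deviations 0.05 over 442 constructs). On simulated counts for 442 constructs the construct test recovered 100% of 2-fold and of 1.5-fold changes and called 5.79% of unchanged constructs. On 437 simulated couples it recovered 100% of differences of at least 2-fold and called 2.14% of equal couples. All simulated counts were drawn at 1 common dispersion of 0.0025, fitted to these data and equal for all libraries. They held neither spread between barcodes nor the floor of 1 read, so these rates do not cover such errors.

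Members, lists and comparisons were chosen with earlier results of these data known, and the exchange of the central motif was added after the construct names had been seen. Named are the rd constructs and the 10 highest and 10 lowest past the threshold with both replicates on 1 side. All homotypic arrays are given by copy number, and for each pair the most active construct. Couples were named from the 5 largest differences in each direction of each comparison, but not all of these are given. Alternatives covered the scaling, DESeq2 1.42.0, minimums of reads and barcodes, barcode medians, left-out replicates, the 10 bp libraries alone, a replicate block and a reference per context.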

Additional observations from a re-analysis of the deposited data

How the results depend on the processing

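Scaling was the choice that changed most. By library totals, which shift every log2 ratio by the same amount, 51 constructs were at least 2-fold higher and 179 at least 2-fold lower, and of the 406 constructs that passed, 28 no longer did and 40 passed with the opposite sign. Homotypic NFKB arrays then averaged -0.077, and the log2 ratio turned to -0.34 for IRF_2, -0.59 for MYC_1, -0.068 for PU1_FOXO_1, -0.041 for PU1_RUNX3_1 and -0.31 for rd_2. With the rd construct of the same context as the reference, which changes only the zero point, it turned to -0.028 for IRF_2, 0.026 for PU1_MYC_3 and 0.050 for RUNX3_MYC_3. Under no alternative other than library totals did a called construct pass with the opposite sign, and between 0 and 29 of the 406 calls were lost under each. With a replicate block, which gives couples a term per library, the count of order differences rose from 34 to 58 of 84. The cause of this rise was not tested. The other counts moved by less than 1.5 times with the replicate block (207 higher and 204 lower constructs). Leaving out mRNA replicate 1 or 2 gave 197 to 209 higher and 196 to 209 lower constructs. Both mRNA libraries and the 1 plasmid library limit all errors given, and arrays on fewer than 50 barcodes are the least certain.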

Other observations

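Barcode medians, which give each barcode the same weight, kept the sign of most matched differences that passed: 77 of 77 for copy number, 242 of 242 against the stronger homotypic array, 45 of 45 for the central motif, 84 of 84 for context 3 against 1, 88 of 90 for context 2 against 1, 106 of 108 for context 3 against 2, 33 of 34 for order and 274 of 278 against the weaker homotypic array. In 5 constructs the barcode median and the summed reads differed by more than 0.5 log2 units, and in 3 constructs 1 barcode gave over 50% of the mRNA reads of a replicate.

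Weak constructs other than those with CTCF also stood closer to the floor of 1 mRNA read. Among barcodes with at least 20 plasmid reads, the share at 1 read in at least 1 mRNA library was 13.1% for homotypic MYC arrays. It was 12.4% for homotypic PU1 arrays, against 0.78% for IRF, 2.25% for NFKB and 43.3% for CTCF. Plasmid reads per barcode were 18.8 for homotypic MYC arrays, 17.1 for PU1, 14.3 for IRF, 16.8 for NFKB and 26.0 for CTCF. Their part in the levels was not tested.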
